A study of Homo sapiens with 9 samples.

Results

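Cells make cholesterol from acetyl units, take it up, store it, export it and sense how much of it their membranes hold, and 28 genes that carry out or control these steps were followed in HEK293T cells with less SIN3A or less SIN3B. The genes were picked by symbol from the known pathway, with earlier results of these data known. They make up 28 of the 58734 genes in the count table. They comprise 8 enzymes of the mevalonate arm, 11 enzymes of the sterol arm, 4 genes of sterol sensing and 5 genes of sterol uptake, storage, export and oxysterol response. HEK293T cells derive from human embryonic kidney and express the large T antigen of SV40, and SIN3A and SIN3B are paralogous scaffolds of histone deacetylase complexes. In every group the cells grew in medium with serum and received a lipid-based transfection of 10 nM siRNA for 36 h, and poly-A RNA was then sequenced from 3 libraries per group. The SIN3A knockdown group received siRNA to SIN3A, the SIN3B knockdown group received siRNA to SIN3B, and the control group received a control siRNA. Titles and source names gave the groups, since the treatment description names the control siRNA last in all samples. Each group is a population of 1 cell line, and the labels do not say whether its 3 libraries came from separate transfections. The p-values therefore measure the spread between libraries, which may be technical. That spread was estimated per gene over all 9 libraries, so each test also draws on the group outside its comparison. Less RNA per cell and fewer cells that make it cannot be told apart in such bulk libraries.

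The mevalonate arm turns acetyl-CoA into isoprenoid units, which feed the sterol arm and also the lipid tails of proteins, dolichol and ubiquinone. In the sterol arm a pair of farnesyl units is joined to squalene, squalene is closed into lanosterol, and that ring system is trimmed to cholesterol. SREBP-2, the product of SREBF2, is held in the endoplasmic reticulum by SCAP and the INSIG proteins when sterols are plentiful, and otherwise moves to the Golgi, is cut, and turns on synthesis and uptake genes. Liver X receptors such as the NR1H2 product respond to oxysterols and turn on export and the degradation of lipoprotein receptors.

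The deposited counts summed to between 22542798 and 27084884 per library, and all 28 genes passed the filter on low counts. At least 98% of nonzero counts in any library were divisible by 4, so 12 counts per library, or 3 such steps, were taken as the floor. Both siRNAs lowered their own target. SIN3A stood at 44.9, 49.9 and 47.0 CPM (counts scaled by TMM to a common library size) in SIN3A knockdown libraries, against 141, 147 and 149 CPM in controls, 0.325-fold. SIN3B stood at 59.2, 53.8 and 52.3 CPM in SIN3B knockdown libraries, against 100.4, 97.1 and 91.1 CPM in controls, 0.573-fold. The SIN3A knockdown libraries lay further apart than the others, with a chi-square per degree of freedom between pairs of 3.53 to 7.37, against 1.42 to 1.98 among SIN3B knockdown libraries and 1.57 to 1.86 among controls. Replicate 1 of the SIN3A knockdown stood apart in the cholesterol genes too, with a median of 0.10 above its group mean on the log2 scale. All 7 markers of HEK293 cells were detected, and their summed level was 1068 to 1293 CPM in SIN3A knockdown, 944.8 to 1008 CPM in SIN3B knockdown and 1215 to 1346 CPM in control libraries. VIM alone averaged 773 CPM in controls. Of the 7, edgeR called 1 higher and 2 lower in SIN3A knockdown cells (42.9%, next to 22.7% of all genes). It called 1 higher and 3 lower in SIN3B knockdown cells (57.1%, next to 23.6%). Hepatocyte markers summed to 0.940 CPM or less in any library, with 3 of 5 at 0 in every group. Blood markers summed to 3.45 to 7.36 CPM in SIN3A knockdown, 2.80 to 5.44 CPM in SIN3B knockdown and 3.16 to 4.45 CPM in control libraries. Fibroblast markers summed to 27.6 to 37.7, 26.4 to 30.8 and 27.0 to 28.3 CPM in these groups. Of the 3 tested, COL1A1 was called higher in SIN3A knockdown cells (log2 fold change 0.39 ± 0.13, edgeR adjusted p = 0.0333). COL3A1 lay the other way without a call, at 1.64 ± 0.64 CPM in SIN3A knockdown and 2.66 ± 0.30 CPM in control libraries. The part of the markers in the results was not tested.

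In SIN3A knockdown cells 6 of the 28 genes rose and 0 fell relative to control (edgeR quasi-likelihood test, Benjamini-Hochberg adjusted over 16686 genes, threshold 0.05). They were FDFT1, LSS and MSMO1 of the sterol arm and SOAT1, MYLIP and NR1H2 among the handling genes. Of all genes tested, 22.7% changed in this comparison, 12% upward and 10.8% downward, so the 21.4% of cholesterol genes called lay at the background. At an unadjusted p under 0.05 the counts were 10 higher and 3 lower. The share of all genes at that threshold is not reported here, so these 2 counts have no background. DESeq2 called 6 higher and 1 lower, next to 2161 higher and 1762 lower over all genes. In a fit of only the 6 libraries compared, 5 were called higher and 0 lower, next to 1621 and 1492 over all genes. The split by direction moved with the scaling. Of all calls 52.7% were upward with TMM factors and 36.8% with upper-quartile factors, under which 4 cholesterol genes were called higher and 3, namely EBP, INSIG1 and SREBF2, lower. Without SIN3A knockdown replicate 1 EBP and INSIG1 were called lower, and without control replicate 2 INSIG1 was called lower.

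In SIN3B knockdown cells 3 genes rose and 4 fell relative to control. The genes that rose were MSMO1, SC5D and STARD4, and those that fell were TM7SF2, INSIG1, SREBF2 and NR1H2. The background was 23.6% of all genes tested, 12% upward and 11.6% downward, next to 25% of the cholesterol genes. These tests share their spread per gene with the SIN3A knockdown libraries, which lay further apart. In a fit of only the 6 libraries compared, 4 cholesterol genes were called higher and 7 lower, next to 2734 and 2583 over all genes. The added calls were FDPS, SQLE and SCAP, lower, and DHCR7, higher. The count of genes called lower was 7 without SIN3A knockdown replicate 1. It was 2 without control replicate 3, without SIN3B knockdown replicate 2 or without SIN3B knockdown replicate 3. The count over all genes moved as well, from 1929 called lower with all 9 libraries. It was 2276 without SIN3A knockdown replicate 1, 1371 without control replicate 3 and 1280 without SIN3B knockdown replicate 2.

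Set directly against each other, the knockdowns differed in 12 of the 28 genes, with 10 higher and 2 lower in SIN3A than in SIN3B knockdown cells. That was 42.9% of the cholesterol genes, next to 27.1% of all genes tested, 14.4% upward and 12.6% downward. Without SIN3A knockdown replicate 2, SIN3B knockdown replicate 2 or SIN3B knockdown replicate 3 the count called higher was 6. Without SIN3A knockdown replicate 2 or 3, or SIN3B knockdown replicate 1 or 3, the count called lower was 1. The counts over all genes tested in those fits are not reported here. The changes were small throughout, since no gene reached a 2-fold difference in any comparison, and TM7SF2, at 1.85-fold in the direct comparison, differed most. The median log2 fold change of the 28 genes was 0.10 in SIN3A knockdown and -0.002 in SIN3B knockdown cells relative to control, against -0.002 and -0.015 over all genes tested in those comparisons. The comparisons share libraries: both knockdowns were set against the same 3 controls, and the direct comparison used the same 6 knockdown libraries.

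**Figure D1:**
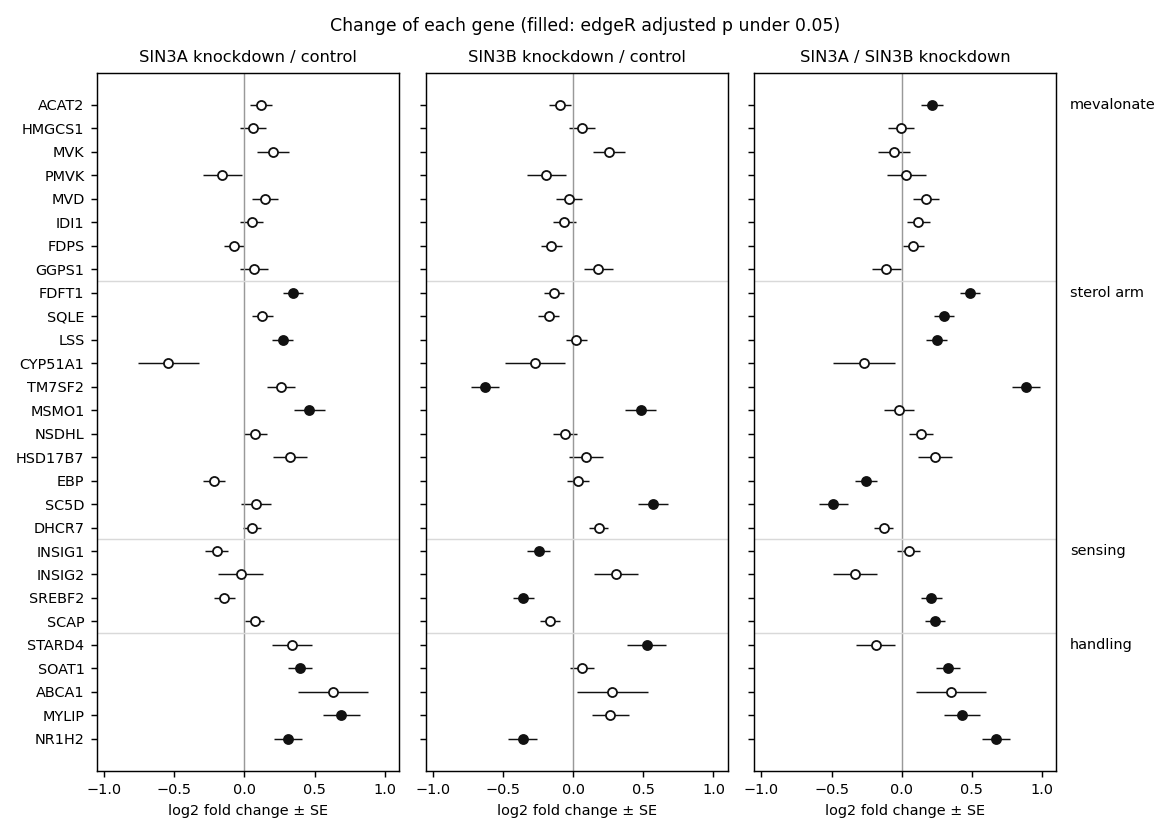
Log2 fold change (x axis) with its standard error for the 28 genes (rows, grouped by role) in the 3 comparisons, with filled points for genes called at an adjusted p under 0.05. No mevalonate-arm gene is filled against control, while TM7SF2 and NR1H2 lie furthest right among the filled points of the direct comparison, at 0.89 and 0.67.

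Levels were compared between genes per kilobase of exon, with the exons of all annotated transcripts of a gene merged. The transcripts that the cells express can be shorter than this merged length. The order of the genes therefore depends on the annotation. In control libraries INSIG1, which retains the SREBP carrier in the endoplasmic reticulum, was highest at 72.6 ± 6.9 CPM per kb (SD, n = 3). FDPS, which makes farnesyl diphosphate, followed at 59.9 ± 1.5, and EBP, the sterol isomerase, at 44.2 ± 2.3 CPM per kb. DHCR7, which carries out the last reduction of one route to cholesterol, and NSDHL, which removes a carbon from the ring system, stood at 36.4 ± 0.68 and 34.7 ± 0.38 CPM per kb. SQLE and SCAP, at 33.8 ± 1.4 and 30.2 ± 1.4 CPM per kb, came next. The levels of NSDHL and SQLE did not differ beyond their spread. At the low end stood STARD4 with 1.98 ± 0.21, CYP51A1 with 1.29 ± 0.12 and the exporter ABCA1 with 0.230 ± 0.019 CPM per kb. The count of CYP51A1, the lanosterol demethylase, is uncertain, because 79.35% of its exon bases also belong to an overlapping gene model on the same strand that was listed at 0.

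**Figure D2:**
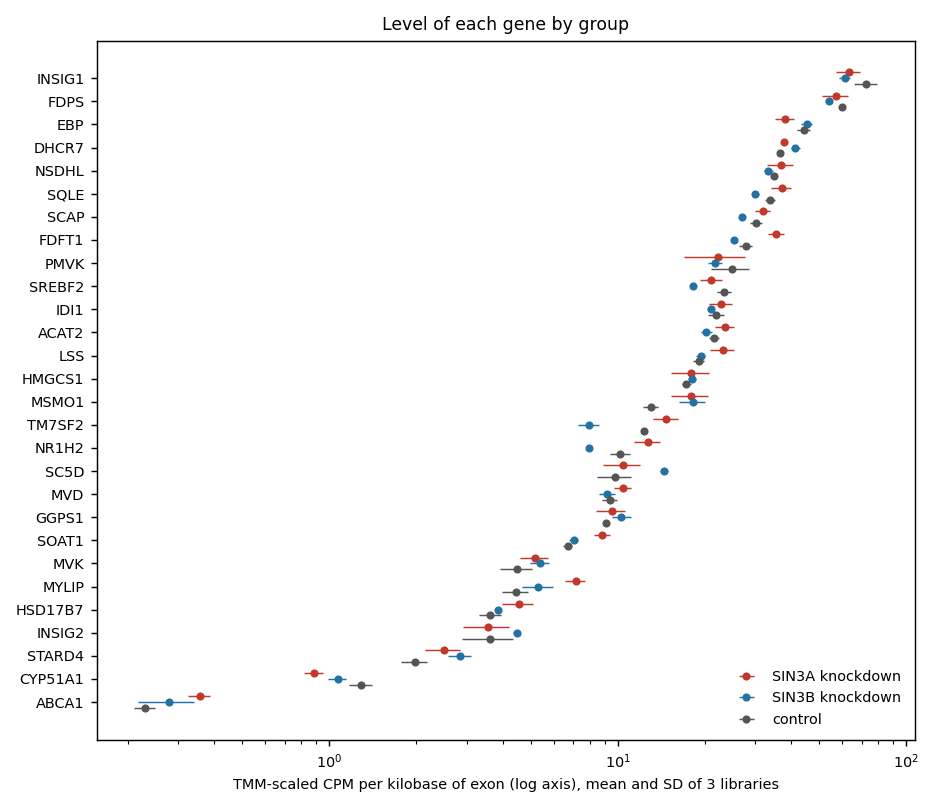
Mean level in CPM per kb of exon (log axis) for each of the 28 genes in SIN3A knockdown, SIN3B knockdown and control libraries (n = 3 each), ordered by the control mean. Exon length is that of all annotated transcripts merged, so the order depends on the annotation. INSIG1 and FDPS are at the high end with 72.6 and 59.9 CPM per kb in controls, and ABCA1 is at the low end with 0.230.

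Of all genes tested, edgeR called 22.7% in SIN3A knockdown and 23.6% in SIN3B knockdown cells against control. In the mevalonate arm 0 of 8 genes were called in either knockdown against control with the main edgeR settings, DESeq2 or limma. At an unadjusted p under 0.05 there were 0 in SIN3A knockdown and 1, MVK, in SIN3B knockdown cells. HMGCS1, which condenses acetoacetyl-CoA with a further acetyl unit, is a standard SREBP-2 target. It stood at 83.2, 72.9 and 97.8 CPM in SIN3A knockdown, 87.7, 84.3 and 82.9 CPM in SIN3B knockdown and 83.4, 78.0 and 82.5 CPM in control libraries. The 3 groups overlapped, and the 95% interval of its log2 fold change ran from -0.14 to 0.25 in SIN3A knockdown and from -0.13 to 0.26 in SIN3B knockdown cells. The other 7 genes of this arm were ACAT2, MVK, PMVK, MVD, IDI1, FDPS and GGPS1. Over the 8 genes the log2 values lay between -0.16 and 0.20 in SIN3A knockdown and between -0.19 and 0.26 in SIN3B knockdown cells, and every 95% interval lay within -0.45 to 0.44 and -0.49 to 0.50. MVK, the mevalonate kinase, averaged 33.5 ± 3.7 CPM in SIN3A knockdown, 34.8 ± 2.7 CPM in SIN3B knockdown and 29.1 ± 3.7 CPM in control libraries. FDPS averaged 211.6 ± 22, 200 ± 5.6 and 222.7 ± 5.7 CPM in these groups, and was called lower in SIN3B knockdown cells without SIN3A knockdown replicate 1, at -0.15 (edgeR adjusted p = 0.0347). Over the 18 alternative settings its adjusted p there ran from 0.0143 to 0.378. The GGPS1 count is uncertain, because 37.33% of the exon bases of this geranylgeranyl diphosphate synthase also belong to a TBCE gene model on the same strand. ACAT2, the cytosolic thiolase, shares 9.23% of its exon bases with TCP1 on the opposite strand, and whether the counting used strand is not given in the sources used here.

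Among the enzymes, every call against control with the main edgeR settings was in the sterol arm. In each knockdown 27.3% of its 11 genes were called, next to 22.7% of all genes in SIN3A knockdown and 23.6% in SIN3B knockdown cells. A contrast between the arms was not tested. FDFT1, squalene synthase, commits farnesyl units to sterols. It stood at 198, 179 and 175 CPM in SIN3A knockdown, 130.4, 133 and 131 CPM in SIN3B knockdown and 137, 145 and 152 CPM in control libraries. Every SIN3A knockdown library lay above every control, with a log2 fold change of 0.35 ± 0.07 (SE; edgeR adjusted p = 0.00188). SIN3B knockdown libraries lay below all controls without passing the test (-0.14 ± 0.07, edgeR adjusted p = 0.196). FDFT1 was called higher in SIN3A knockdown cells under all 18 alternative settings.

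SQLE and LSS carry out the next steps, the epoxidation of squalene and its closure to lanosterol. SQLE averaged 159.2 ± 12 CPM in SIN3A knockdown, 129.1 ± 3.5 CPM in SIN3B knockdown and 145.7 ± 5.9 CPM in control libraries, and neither knockdown passed the test against control, although it was called lower in SIN3B knockdown cells without SIN3A knockdown replicate 1 (-0.17, edgeR adjusted p = 0.0316; 0.0144 to 0.298 over the 18 settings). LSS averaged 166.9 ± 16 CPM in SIN3A knockdown, 140.6 ± 4.8 CPM in SIN3B knockdown and 138.3 ± 6.0 CPM in control libraries. It rose by a log2 value of 0.27 ± 0.08 in SIN3A knockdown cells (edgeR adjusted p = 0.015). That call was lost without control replicate 1 (0.24, edgeR adjusted p = 0.0797), without SIN3A knockdown replicate 2 (0.21, adjusted p = 0.0711) and with upper-quartile factors (0.20, adjusted p = 0.0683).

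TM7SF2 is a sterol reductase that acts after the lanosterol demethylase. Its levels were 53.5, 52.4 and 44.2 CPM in SIN3A knockdown, 25.3, 26.4 and 29.6 CPM in SIN3B knockdown and 41.6, 41.8 and 42.0 CPM in control libraries. The SIN3B knockdown libraries all lay far below the controls, and the SIN3A knockdown libraries all lay above them. TM7SF2 fell to 0.648-fold in SIN3B knockdown cells (log2 fold change -0.63 ± 0.10, edgeR adjusted p = 0.000193), a call that held under all 18 alternative settings. The SIN3A knockdown value was 0.26 ± 0.10 on the log2 scale (edgeR adjusted p = 0.067), and without SIN3A knockdown replicate 3 it passed the test at 0.34 (adjusted p = 0.0171; 0.0171 to 0.186 over the 18 settings). The gene lies at chr11:65111845-65116384 on the plus strand of GRCh38.

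MSMO1, the methyl sterol oxidase that removes methyl groups from the ring system, rose in both knockdowns. It stood at 52.4, 44.0 and 59.1 CPM in SIN3A knockdown, 47.1, 52.5 and 58.0 CPM in SIN3B knockdown and 40.2, 36.0 and 36.5 CPM in control libraries. No knockdown library overlapped the controls. The log2 fold changes were 0.46 ± 0.11 (edgeR adjusted p = 0.00512) in SIN3A knockdown and 0.48 ± 0.11 (adjusted p = 0.00338) in SIN3B knockdown cells, called under all 18 settings in each. MSMO1 was the 1 cholesterol gene called in the same direction in both, and the interval of the direct difference ran from -0.25 to 0.21.

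SC5D, the desaturase that acts late in the arm, stood at 54.5, 51.5 and 67.1 CPM in SIN3A knockdown, 80.7, 83.4 and 78.4 CPM in SIN3B knockdown and 59.8, 46.5 and 57.3 CPM in control libraries. The SIN3B knockdown libraries lay above all the others, whereas the SIN3A knockdown and control libraries overlapped. SC5D rose 1.48-fold in SIN3B knockdown cells (log2 fold change 0.57 ± 0.11, edgeR adjusted p = 0.000677), and its value in SIN3A knockdown cells was 0.08 ± 0.11 (adjusted p = 0.641).

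With the main edgeR settings the other 5 enzymes of this arm were not called against control in either knockdown, but other settings or tools called 4 of the 5. With edgeR, EBP was called lower in SIN3A knockdown cells with upper-quartile factors (adjusted p = 0.014), counts divided by 4 (0.0276) and a robust fit (0.0428). DHCR7 was called higher in SIN3B knockdown cells with counts divided by 4 (edgeR adjusted p = 0.0401), only the 6 libraries compared (0.00638) and a robust fit (0.0422). DESeq2 called EBP lower in SIN3A knockdown cells (adjusted p = 0.0355) and DHCR7 higher in SIN3B knockdown cells (adjusted p = 0.0112). On log2 FPKM with pseudocounts of 1 and 0.1, limma called CYP51A1 lower (adjusted p = 0.026 and 0.0292) and HSD17B7 higher (0.047 and 0.0489) in SIN3A knockdown cells, and DHCR7 higher in SIN3B knockdown cells (0.0384 and 0.0386). EBP averaged 91.5 ± 6.6 CPM in SIN3A knockdown, 109.1 ± 4.7 CPM in SIN3B knockdown and 106.4 ± 5.7 CPM in control libraries (SIN3A knockdown against control -0.22 ± 0.08, edgeR adjusted p = 0.0506; 0.0135 without SIN3A knockdown replicate 1, and up to 0.17 over the 18 settings). DHCR7 averaged 157 ± 4.0, 171.9 ± 6.1 and 151.5 ± 2.8 CPM in those groups, with a log2 value of 0.18 ± 0.07 in SIN3B knockdown cells (edgeR adjusted p = 0.0516). DHCR7 passed the test there without SIN3A knockdown replicate 1, 2 or 3, with adjusted p values of 0.0117, 0.0498 and 0.0385. HSD17B7, a ketoreductase with an expressed pseudogene that holds 14.112% as many counts, had a log2 value of 0.32 ± 0.12 in SIN3A knockdown cells (edgeR adjusted p = 0.0638) and passed without SIN3A knockdown replicate 3 (0.42, adjusted p = 0.0201; up to 0.222 over the 18 settings). CYP51A1 had -0.54 ± 0.22 there (edgeR adjusted p = 0.0837) at a level of 2.94 to 5.09 CPM over all libraries. NSDHL lay within 0.08 of control in both knockdowns on the log2 scale.

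**Figure D3:**
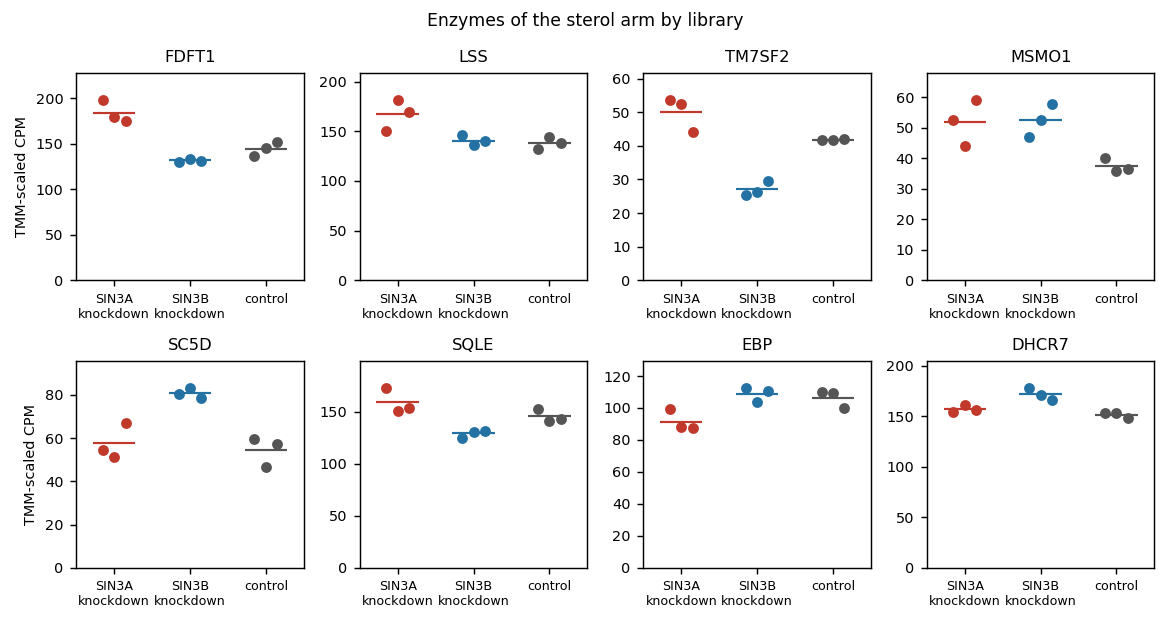
Level in TMM-scaled CPM (y axis, from 0) of 8 sterol-arm genes in each SIN3A knockdown, SIN3B knockdown and control library (points), with the group mean as a line. TM7SF2 is lowest in SIN3B knockdown libraries, at 25.3 to 29.6 CPM, and SC5D is highest there, at 78.4 to 83.4 CPM.

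Among the 4 sensing genes SREBF2 and INSIG1 fell in SIN3B knockdown cells (50%, next to 23.6% of all genes called). In SIN3A knockdown cells 0 of the 4 genes were called, next to 22.7% of all genes. At an unadjusted p under 0.05 the count in SIN3A knockdown cells was 1, INSIG1, and DESeq2 and limma called 0. SREBF2, which encodes SREBP-2, the transcription factor that turns on the pathway, stood at 147, 173 and 159 CPM in SIN3A knockdown, 139, 138 and 137 CPM in SIN3B knockdown and 186, 177 and 166 CPM in control libraries. All SIN3B knockdown libraries lay below the controls, while the SIN3A knockdown and control libraries overlapped. SREBF2 fell to 0.781-fold in SIN3B knockdown cells (log2 fold change -0.36 ± 0.07, edgeR adjusted p = 0.00173), under all 18 alternative settings. In SIN3A knockdown cells its log2 value was -0.14 ± 0.07 (edgeR adjusted p = 0.175; 0.0478 with upper-quartile factors).

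INSIG1, itself a strong SREBP-2 target, stood at 251, 207 and 235 CPM in SIN3A knockdown, 234, 213 and 224 CPM in SIN3B knockdown and 266, 239 and 289 CPM in control libraries. The SIN3B knockdown libraries lay just below the lowest control, and the SIN3A knockdown libraries overlapped the controls. The log2 fold change of INSIG1 was -0.24 ± 0.08 (edgeR adjusted p = 0.0354) in SIN3B knockdown and -0.20 ± 0.08 (adjusted p = 0.0937) in SIN3A knockdown cells. The SIN3B knockdown call was lost without control replicate 1 (adjusted p = 0.0987), control replicate 3 (0.226), SIN3B knockdown replicate 2 (0.163) or SIN3B knockdown replicate 3 (0.107), and with limma on log2 FPKM. In SIN3A knockdown cells INSIG1 passed without control replicate 2 (adjusted p = 0.047) or SIN3A knockdown replicate 1 (adjusted p = 0.0255).

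INSIG2, the less abundant paralog of INSIG1, and SCAP, the sterol-sensing escort of SREBP, were not called against control. INSIG2 averaged 14.0 ± 2.5 CPM in SIN3A knockdown, 17.6 ± 0.51 CPM in SIN3B knockdown and 14.3 ± 2.9 CPM in control libraries. SCAP averaged 204.5 ± 13, 173.6 ± 3.3 and 194.5 ± 8.8 CPM in these groups, and was called lower in SIN3B knockdown cells without SIN3A knockdown replicate 1 (edgeR adjusted p = 0.0484; 0.014 to 0.297 over the 18 settings).

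Of the 5 handling genes, SOAT1, MYLIP and NR1H2 rose in SIN3A knockdown cells (60%, next to 22.7% of all genes called). In SIN3B knockdown cells STARD4 rose and NR1H2 fell (40%, next to 23.6%). MYLIP, the ubiquitin ligase induced by liver X receptors that sends lipoprotein receptors to degradation, stood at 23.4, 19.9 and 21.8 CPM in SIN3A knockdown, 17.8, 16.7 and 13.9 CPM in SIN3B knockdown and 13.8, 11.9 and 14.6 CPM in control libraries. The SIN3A knockdown libraries lay above all the others. MYLIP rose 1.61-fold in SIN3A knockdown cells (log2 fold change 0.69 ± 0.13, edgeR adjusted p = 0.000989), called under all 18 settings, and its log2 value in SIN3B knockdown cells was 0.26 ± 0.13 (adjusted p = 0.167).

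SOAT1 makes the cholesteryl esters that cells store in droplets. It averaged 62.0 ± 3.9 CPM in SIN3A knockdown, 49.2 ± 1.9 CPM in SIN3B knockdown and 47.1 ± 1.7 CPM in control libraries, and rose by a log2 value of 0.40 ± 0.09 in SIN3A knockdown cells (edgeR adjusted p = 0.00268). STARD4, a soluble carrier that moves cholesterol between membranes, stood at 12.7, 13.5 and 16.5 CPM in SIN3A knockdown, 15.5, 17.8 and 15.2 CPM in SIN3B knockdown and 12.6, 10.96 and 10.2 CPM in control libraries. Both knockdowns lay above all controls. STARD4 rose 1.44-fold in SIN3B knockdown cells (log2 fold change 0.53 ± 0.14, edgeR adjusted p = 0.00986). That call was lost without control replicate 2 (adjusted p = 0.0511), control replicate 3 (0.0555) or SIN3B knockdown replicate 2 (0.0653). In SIN3A knockdown cells the value was 0.34 ± 0.14 (edgeR adjusted p = 0.0931; 0.0454 without SIN3A knockdown replicate 1).

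NR1H2, the liver X receptor found in most tissues, was the 1 cholesterol gene called in opposite directions. It stood at 53.4, 46.5 and 43.6 CPM in SIN3A knockdown, 30.2, 29.9 and 29.8 CPM in SIN3B knockdown and 35.1, 39.0 and 41.3 CPM in control libraries. The 3 groups did not overlap. The log2 fold change was 0.31 ± 0.10 in SIN3A knockdown (edgeR adjusted p = 0.029) and -0.36 ± 0.10 in SIN3B knockdown cells (adjusted p = 0.0131). The rise was lost without control replicate 1 (adjusted p = 0.142), control replicate 2 (0.077) or SIN3A knockdown replicate 1 (0.0785), with the replicate block (0.0506) and in 4 other settings. The fall was lost without control replicate 3 (adjusted p = 0.0797), SIN3B knockdown replicate 2 (0.0514) or SIN3B knockdown replicate 3 (0.0522), and with limma on log2 FPKM.

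ABCA1, the exporter that loads cholesterol onto apolipoprotein and a classic liver X receptor target, was the gene with the lowest level per kilobase. It stood at 3.68, 4.38 and 4.07 CPM in SIN3A knockdown, 3.98, 2.65 and 2.88 CPM in SIN3B knockdown and 2.38, 2.82 and 2.63 CPM in control libraries. The SIN3A knockdown libraries lay above the controls and the SIN3B knockdown libraries overlapped them. ABCA1 did not pass the test, with a log2 value of 0.63 ± 0.25 in SIN3A knockdown cells (edgeR adjusted p = 0.0799; 95% interval 0.10 to 1.16) and 0.28 ± 0.25 in SIN3B knockdown cells (adjusted p = 0.491).

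**Figure D4:**
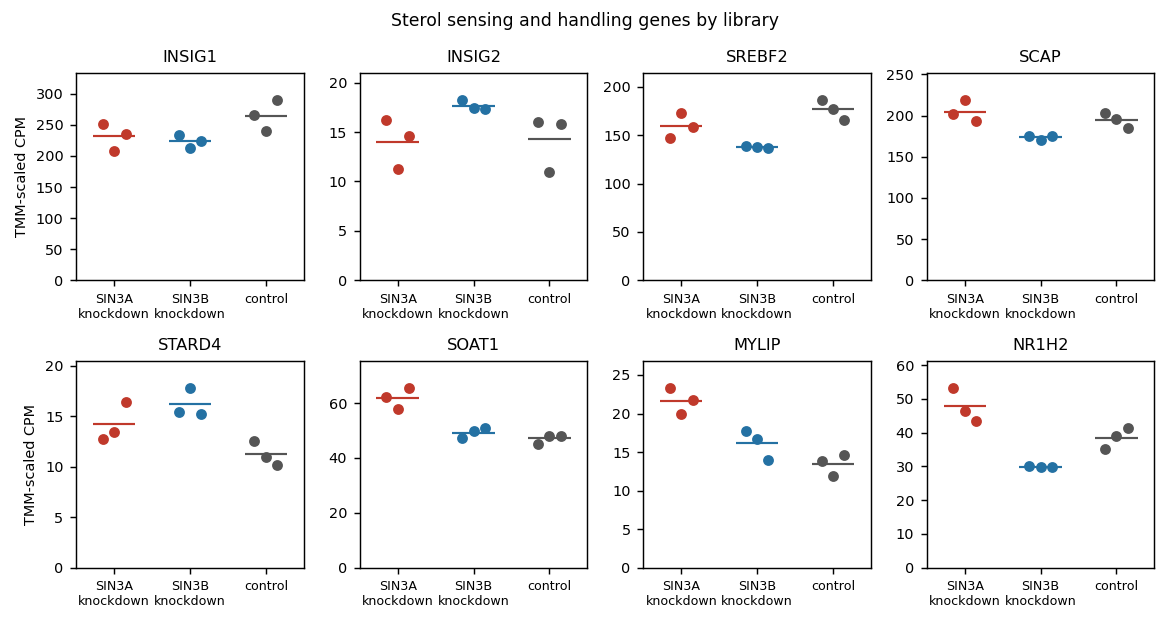
Level in TMM-scaled CPM (y axis, from 0) of 4 sensing and 4 handling genes in each SIN3A knockdown, SIN3B knockdown and control library (points), with the group mean as a line. SREBF2 sits at 137 to 139 CPM in SIN3B knockdown libraries, below all controls, and NR1H2 falls into 3 separate bands.

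The direct comparison of the knockdowns tested whether the genes above differed between them. TM7SF2 was higher in SIN3A than in SIN3B knockdown cells by a log2 value of 0.89 ± 0.10 (edgeR adjusted p = 2.72e-06), and NR1H2 by 0.67 ± 0.10 (adjusted p = 5.71e-05). FDFT1 was higher by 0.48 ± 0.07 (edgeR adjusted p = 5.37e-05) and SQLE by 0.30 ± 0.07 (adjusted p = 0.00425), so both enzymes around squalene were higher in SIN3A knockdown cells. SOAT1 was higher by 0.33 ± 0.09 (edgeR adjusted p = 0.00656). SC5D was lower by a log2 value of -0.49 ± 0.11 (edgeR adjusted p = 0.00192). These 6 differences were called under all 18 alternative settings.

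The remaining 6 calls of the direct comparison depended on single libraries. MYLIP, higher by 0.43 ± 0.13 (edgeR adjusted p = 0.0184), missed the threshold without SIN3A knockdown replicate 1 (adjusted p = 0.0511) or SIN3B knockdown replicate 3 (0.11). LSS, higher by 0.25 ± 0.08 (edgeR adjusted p = 0.0203), missed it without SIN3A knockdown replicate 2 (0.107), SIN3B knockdown replicate 2 (0.096) or SIN3B knockdown replicate 3 (0.0738). SCAP, higher by 0.24 ± 0.07 (edgeR adjusted p = 0.0149), missed it without SIN3A knockdown replicate 2 (0.0748) or SIN3B knockdown replicate 2 (0.0726). EBP, lower at -0.25 ± 0.08 (edgeR adjusted p = 0.0201), missed it without SIN3A knockdown replicate 2 (0.0714), SIN3A knockdown replicate 3 (0.0577), SIN3B knockdown replicate 1 (0.0891) or SIN3B knockdown replicate 3 (0.0769). SREBF2, at 0.21 ± 0.07 (edgeR adjusted p = 0.0417), and ACAT2, at 0.21 ± 0.08 (adjusted p = 0.0496), were called in only 6 and 3 of the 18 alternative settings. For SREBF2 the adjusted p without 1 library reached 0.19, without SIN3A knockdown replicate 2, and for ACAT2 0.144, without SIN3B knockdown replicate 1. Both missed the threshold with the replicate block (adjusted p = 0.0634 for SREBF2 and 0.0781 for ACAT2).

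Sequences near the start sites of the cholesterol genes, called or not, were read from the annotation, to show where candidate sites lie. A sterol regulatory element, searched as TCACNCCAC on both strands, lies in 1 of the 25 members with a RefSeq window of 250 bases before to 50 bases after a start site (4.0%), against 1.5% of 15843 protein-coding genes. That member is SREBF2, and the match begins 133 bases before its start site at chr22:41832962-41832991 of GRCh38.p14, plus strand. The capitals mark the matched letters.
SREBF2 promoter: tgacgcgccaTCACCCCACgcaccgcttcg
The shorter form CACNCCAC, which the longer one contains, was in 5 of the 25 (20.0%, against 8.0%), namely ABCA1, IDI1, INSIG1, SC5D and SREBF2. The CCAAT box was in 19 of the 25 (76.0%, against 42.1%), the GC box GGGCGG in 24 (96.0%, against 64.3%) and the E-box CACGTG in 5 (20.0%, against 10.9%). These are matches of letters only. No window was used for ACAT2, SQLE and FDFT1.

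Short words in 3′ UTRs were examined because earlier results of these data associated certain 7-base words with lower values in each knockdown. Over the annotated 3′ UTRs (GENCODE 29, GRCh38, transcript strand) of 13393 tested genes, those with ACAGCCT or CAGCCTT had a median log2 fold change of -0.07 in SIN3B knockdown cells, against 0.01 for genes without. Of genes with such a word 21.18% were called lower there, against 10.78% of genes without. The words lie in 4 of the 28 cholesterol genes (14.3%, against 24.82% of all genes searched), of which SREBF2 and NR1H2 fell in SIN3B knockdown cells and MVK and ABCA1 did not. The capitals mark the word or overlapping words.
SREBF2: cccctgcctcCAGCCTTcctgagtttct
NR1H2: acccagccccACAGCCTTgcctgaccac
MVK: acccccacgcCAGCCTTgggcccggcct
ABCA1: caatactgggCAGCCTTttttttttttt
They lie at chr22:41905943-41905970 (plus strand), chr19:50382613-50382640 (plus), chr12:109597946-109597973 (plus) and chr9:104782853-104782880 (minus). TM7SF2 and INSIG1, which also fell in SIN3B knockdown cells, hold neither word in the transcript searched. The words that went with SIN3A knockdown, GGTCTAA and AGGTCTA, lie in EBP and INSIG2 (2 of 28, 7.1%, against 7.7% of all genes searched). Over all genes searched, those with such a word had a median of -0.10 in SIN3A knockdown cells, against 0.02 for genes without, and 25.02% were called lower, against 11.21%. EBP and INSIG2 had log2 values of -0.22 and -0.03 in SIN3A knockdown cells, neither of them called. Both sets of words came from these same data, so the differences between genes with and without them are a description and not a test. Genes with and without a word were not matched for 3′ UTR length. Whether the siRNAs act at these words was not tested.

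Other genes around the pathway were taken from 4 lists of 47 genes, 44 of them tested. In SIN3A knockdown cells 5 of the 44 rose and 3 fell (18.2%), and in SIN3B knockdown cells 12 rose and 6 fell (40.9%). Over all genes tested the shares called were 22.7% in SIN3A knockdown and 23.6% in SIN3B knockdown cells. The count that rose in SIN3B knockdown cells was 7 without control replicate 2 or without SIN3B knockdown replicate 2. Over all genes 1298 and 1321 were called higher there in these fits, against 2005 with all 9 libraries. The count that fell in SIN3A knockdown cells was 0 without control replicate 2 or SIN3A knockdown replicate 1, and 1 without control replicate 3 or any 1 SIN3B knockdown library. Over all genes 1794 were called lower there with all 9 libraries. That count was 1306 without control replicate 2, 1653 without SIN3A knockdown replicate 1 and 1172 without control replicate 3. It was 1633 to 1719 without any 1 SIN3B knockdown library. Among 15 genes of the non-sterol isoprenoid branch 2 rose in SIN3A knockdown cells (13.3%, next to 22.7% of all genes) and 7 rose and 1 fell in SIN3B knockdown cells (53.3%, next to 23.6%). PGGT1B, a subunit of an enzyme that attaches geranylgeranyl tails to proteins, averaged 24.2 ± 4.7 CPM in SIN3A knockdown, 33.9 ± 5.7 CPM in SIN3B knockdown and 15.4 ± 2.5 CPM in control libraries. It rose in both, by log2 values of 0.65 ± 0.16 (edgeR adjusted p = 0.00514) and 1.14 ± 0.15 (adjusted p = 3.67e-05). COQ2, of ubiquinone synthesis, and NUS1, of dolichol synthesis, rose in SIN3B knockdown cells by 0.61 ± 0.10 (edgeR adjusted p = 0.000279) and 0.43 ± 0.08 (adjusted p = 0.000871).

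LBR, the nuclear envelope protein that carries out the same reduction as TM7SF2, rose in both knockdowns. It averaged 243.3 ± 46 CPM in SIN3A knockdown, 246.7 ± 8.3 CPM in SIN3B knockdown and 183.5 ± 11 CPM in control libraries, with log2 values of 0.41 ± 0.10 (edgeR adjusted p = 0.00504) and 0.43 ± 0.10 (adjusted p = 0.00322). Without SIN3A knockdown replicate 3 the SIN3A knockdown value of LBR was 0.24 (edgeR adjusted p = 0.0199; 0.000375 to 0.0465 on leaving out any 1 library). LBR was the 1 called gene among 5 oxysterol and alternative sterol enzymes in each knockdown. That was 20% in each, next to 22.7% of all genes in SIN3A knockdown and 23.6% in SIN3B knockdown cells. In SIN3B knockdown cells TM7SF2 fell while LBR rose.

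Of 16 transport and storage genes, 2 rose and 1 fell in SIN3A knockdown cells (18.8%, next to 22.7% of all genes), and 2 rose and 3 fell in SIN3B knockdown cells (31.2%, next to 23.6%). OSBPL8, an oxysterol-binding protein family member, rose by 0.84 ± 0.17 (edgeR adjusted p = 0.00164) in SIN3A knockdown and 0.96 ± 0.17 (adjusted p = 0.000421) in SIN3B knockdown cells. Its level was 32.0, 26.9 and 49.5 CPM in SIN3A knockdown libraries, and without SIN3A knockdown replicate 3 the value was 0.54 (edgeR adjusted p = 0.00621; 0.000327 to 0.0192 on leaving out any 1 library). NPC2, which carries cholesterol out of lysosomes, rose by 0.49 ± 0.09 in SIN3A knockdown cells (edgeR adjusted p = 0.000825). NCEH1, a cholesteryl ester hydrolase, fell there (-0.55 ± 0.15, edgeR adjusted p = 0.0125; 0.0567 without SIN3A knockdown replicate 1 and 0.0565 without control replicate 2). SCARB1, the high-density lipoprotein receptor, and LRP8, a receptor of the lipoprotein receptor family, fell in SIN3B knockdown cells by log2 values of -0.59 ± 0.09 (edgeR adjusted p = 7.5e-05) and -0.57 ± 0.10 (adjusted p = 0.000332).

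Among 8 genes of SREBP cleavage and sterol-regulated degradation, 0 rose and 2 fell in SIN3A knockdown cells (25%, next to 22.7% of all genes), and 2 rose and 2 fell in SIN3B knockdown cells (50%, next to 23.6%). MBTPS2, the protease that makes the second SREBP cut, fell in SIN3A knockdown cells (-0.29 ± 0.10, edgeR adjusted p = 0.0462). That call was lost on leaving out any of the 9 libraries other than SIN3A knockdown replicate 3, with adjusted p values of 0.0611 to 0.266. ERLIN1, an endoplasmic reticulum scaffold, rose in SIN3B knockdown cells (0.52 ± 0.09, edgeR adjusted p = 0.000238).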

How the data were processed

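Gene expression was measured in 9 libraries of HEK293T cells, 3 each of SIN3A knockdown, SIN3B knockdown and control, with groups from titles and source names. The table of counts deposited by the authors gives a read count for each Ensembl ID. Per the submitters' processing notes, the tools were Trimmomatic 0.36, HISAT2 2.1.0, HTSeq and DESeq2 1.20.0, with build GRCh38. The FPKM table deposited by the authors was compared only within a gene. No header states strand handling.

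These counts went unaltered into edgeR 4.0.16 under R 4.3.3, using TMM factors, filterByExpr (minimum count 10, minimum total 15) and the quasi-likelihood F-test. A single fit of 9 libraries had 6 residual degrees of freedom. P-values are two-sided and adjusted by Benjamini-Hochberg over 16686 genes, with a threshold of 0.05. The fit was run on simulated counts with 200 changed genes and the same spread in every group. That setting does not cover the wider spread of the SIN3A knockdown libraries, counts in steps of 4 or the larger share of genes called here. Levels are TMM-scaled CPM with SD over 3 libraries. The floor of 12 counts per library covers counting error only. All table IDs matched GENCODE 29. Promoter windows are RefSeq sequences of GRCh38.p14.

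Among the 28 genes, values per library are given for those called with an absolute log2 fold change of at least 0.4, and for INSIG1, HMGCS1, SREBF2 and ABCA1. Up to 3 genes per surrounding list, those of lowest adjusted p among the called, are named. Some genes that this rule names are not reported here. The 28 genes and the lists were chosen with earlier results of these data known. SOAT1, LSS and SQLE values are group means by the same rule.

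Alternatives were upper-quartile factors, DESeq2 1.42.0, no filter, counts divided by 4, only the 6 libraries compared, the replicate number as a block, limma 3.58.1 on log2 FPKM with pseudocounts of 1 and 0.1, leaving out each library and, added after seeing the data, a robust fit. Figures were drawn with matplotlib 3.10.9.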

Additional observations from a re-analysis of the deposited data

How the results depend on the processing

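Of 1512 values of the 28 genes under 18 alternative settings in 3 comparisons, 1384 kept their direction and side of the threshold, 63 lost a call, 33 gained one and 32 changed sign, none of them a called value. The genes called lower in SIN3A knockdown cells, 0 with TMM factors, numbered 3 with upper-quartile factors and 1 with DESeq2, with counts divided by 4, with limma on log2 FPKM at either pseudocount and with the robust fit. Those called lower in SIN3B knockdown cells numbered 7 in the fit of only 6 libraries and 2 with limma on log2 FPKM at either pseudocount, against 4. The causes were not tested.

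Leaving out 1 library gave 0 to 2 genes lower in SIN3A knockdown and 2 to 7 lower in SIN3B knockdown cells, and 6 to 9 higher and 1 to 2 lower in the direct comparison. Over all genes it gave 1291 to 2295 higher and 1172 to 1719 lower in SIN3A knockdown cells, and 1298 to 2442 higher and 1280 to 2276 lower in SIN3B knockdown cells. Fits without a library hold fewer samples.

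Sign changes were of values that were not called. Upper-quartile factors gave log2 values of -0.012 for HMGCS1, -0.016 for IDI1, -0.017 for DHCR7 and -0.059 for SIN3B in SIN3A knockdown cells, and -0.015 for LSS and -0.004 for EBP in SIN3B knockdown cells. Counts divided by 4 gave -0.003 for SIN3B in SIN3A knockdown cells, and the fit of 6 libraries gave 0.002 for HMGCS1 in the direct comparison. Leaving out 1 library gave, in SIN3A knockdown cells, -0.058 to 0.155 for HMGCS1, -0.005 to 0.125 for IDI1, -0.004 to 0.132 for GGPS1, -0.039 to 0.159 for SC5D, -0.192 to 0.109 for INSIG2 and -0.056 to 0.115 for SIN3B. In SIN3B knockdown cells it gave -0.09 to 0.027 for MVD, -0.021 to 0.046 for LSS, -0.007 to 0.07 for EBP and -0.033 to 0.012 for SIN3A. In the direct comparison it gave -0.124 to 0.092 for HMGCS1, -0.107 to 0.035 for MVK, -0.164 to 0.149 for PMVK, -0.125 to 0.088 for MSMO1 and -0.004 to 0.123 for INSIG1.

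Same-numbered libraries of different groups correlated at -0.061 to 0.04 in their deviations from the group means. Differently numbered ones correlated at -0.06 to 0.079. The values show no sign of pairing, and the labels do not say whether the numbers pair libraries. With the replicate block 5 genes were called higher in SIN3A knockdown cells, against 6, and 8 higher in the direct comparison, against 10. Among the genes around the pathway 1 was called lower in SIN3A knockdown cells with the block, against 3. No other count of called genes moved by over 1.5 times with the block. Low counts limit ABCA1 and CYP51A1, at 2.38 to 5.09 CPM, more than the rest. Whether the low count of CYP51A1 comes from its level or from the overlapping gene model was not tested.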
